A study of Homo sapiens with 183 samples.

Results

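Cytochrome P450 and UGT enzymes were followed through the RNA-seq libraries of a study of the transcription factor KLF5 and the AAA+ ATPases RUVBL1 and RUVBL2 in pancreatic ductal adenocarcinoma (PDAC). The 10 genes were taken by name from the 19875 gene names in the tables, and all 10 were found in all 8 tables. They were 8 cytochrome P450 genes (CYP3A5, CYP4F12, CYP4F3, CYP4F11, CYP2S1, CYP1A1, CYP1B1 and CYP24A1) and 2 UGT genes (UGT1A6 and UGT1A10). The tables gave TPM, transcript levels corrected for length and scaled to the same total in every library, for 59 groups of libraries from 9 established human cancer cell lines. AsPC-1 and SUIT-2 were the study's classical PDAC models, T3M-4 and BxPC-3 its basal-like models, and CFPAC-1 was a further PDAC line. The other 4 lines were T84 (colorectal carcinoma), A375 (melanoma), H1048 (small cell lung cancer) and RH30 (alveolar rhabdomyosarcoma).

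In the knockout experiments, Cas9-expressing cells received guide RNAs by lentivirus and RNA was taken on day 5. The control in every line and experiment was sgRosa, against the ROSA26 locus. More than 1 guide was used against ROSA26, KLF5 and each RUVBL gene, and the labels do not say which library received which, so the spread within a group includes any difference between guides. KLF5 was targeted in BxPC-3, AsPC-1 and T3M-4 in 2 experiments each and in SUIT-2 and CFPAC-1 in 1. Experiments were told apart by the replicate numbers in the labels, which in SUIT-2 hold no experiment number. RUVBL1, RUVBL2, CDK1 and RPA3 (the last under the label sgRpa3) were targeted in subsets of the lines, and CHD4 and SERPINB5 in AsPC-1. Knockout populations were pools of cells, not clones, so cells with an intact gene can remain. In the drug experiments, cells received CB-6644, an allosteric inhibitor of the RUVBL1 and RUVBL2 ATPase, or the solvent DMSO for 24 h. AsPC-1 and T3M-4 carried an empty vector (EV) or a lentiviral cDNA of RUVBL1 A62T or RUVBL2 dF109, variants chosen for resistance to the compound, while T84, A375, H1048 and RH30 were treated without a vector. The labels do not state whether replicates were separate cultures, so each p-value measures only the spread between these libraries.

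Cytochromes P450 are haem enzymes that insert an oxygen atom into their substrate with electrons from P450 oxidoreductase or, in mitochondria, from ferredoxin. UGT enzymes of the endoplasmic reticulum attach glucuronic acid from UDP-glucuronate to lipophilic molecules, often to the products of P450 oxidation, and the conjugate is then exported. CYP1A1, CYP1B1 and UGT1A6 are well-known targets of the aryl hydrocarbon receptor (AHR), CYP24A1 is the classic target of the vitamin D receptor (VDR), and CYP3A genes respond to the pregnane X receptor (NR1I2). Most of these enzymes are best known from liver and gut, and CYP3A5 has also been described in PDAC cells, where it can oxidise drugs.

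Levels were compared on the log2(TPM + 1) scale with limma, for genes averaging 1 TPM or more across the libraries fitted. A gene was called when its Benjamini-Hochberg adjusted p over all genes tested was under 0.05. The files hold TPM without counts, so the depth of each library was unknown, and 11292 to 14024 genes reached 1 TPM per library. Against sgRosa, RNA of the targeted gene lay below every control library in 5 of 5 comparisons for RUVBL1, 4 of 4 for RUVBL2, 6 of 6 for RPA3, 1 of 1 for SERPINB5, 3 of 4 for CDK1, 1 of 8 for KLF5 and 0 of 1 for CHD4. RNA level thus gave no check of the sgKLF5 and sgCHD4 labels. In CFPAC-1, CDK1 stood at 194 and 207 TPM in the libraries labelled sgCDK1, 81.0 and 91.9 TPM in those labelled sgRpa3 and 206 to 236 TPM in sgRosa, which goes against the first label. RPA3 stood at 27.9 and 32.7 TPM in the libraries labelled sgCDK1, 30.3 and 31.7 TPM in those labelled sgRpa3 and 33.2 to 45.7 TPM in sgRosa, so it was below every control in both and gives no check of either label. Whether the labels sgCDK1 and sgRpa3 are exchanged in CFPAC-1 cannot be told from these values. Of marker genes for the labelled lines, all 6 basal-like keratinocyte markers reached 1 TPM in T3M-4 and BxPC-3, 7 of 8 classical markers in AsPC-1 and 6 of 8 in SUIT-2, 5 of 5 intestinal markers in T84 and 5 of 5 muscle markers in RH30. H1048 expressed 4 of 6 tuft cell markers, and A375 expressed 3 of 6 melanocyte markers. These lists were not exclusive: 5 of 8 classical markers reached 1 TPM in T3M-4 and in BxPC-3, 5 of 6 basal-like markers in H1048 and 3 of 6 in A375. The summed intestinal markers were 721 to 1591 TPM in AsPC-1 (3 of 5 markers) beside 878 to 954 TPM in T84. Mean correlation of a library with its own group had a median of 0.993 and was under 0.95 for 3 libraries, sgKLF5 replicate 2 of T3M-4 experiment 1 and, in SUIT-2, sgKLF5 replicate 4 and sgRosa replicate 1. The library most like CFPAC-1 sgRosa replicate 2 was an sgKLF5 library. Over all genes, the median log2 fold change lay beyond 0.1 in either direction in 26 of 48 comparisons, with a range from -0.33 to 0.33. A small change of a gene is therefore to be read against the median of its comparison.

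In the GRCh38.p14 annotation, UGT1A10 lies on chromosome 2 from 233636448 to 233773300 on the plus strand and UGT1A6 from 233691702 to 233773300, so both end at the same position. Genes of the UGT1A locus differ in their first exon and share the rest. Of the distinct 76-base stretches (the read length) of the protein-coding GENCODE 44 transcripts, UGT1A6 shares 60.7% and UGT1A10 shares 73.1% with the other UGT1A genes. The split of reads between them rested on the authors' estimation and their levels are uncertain. CYP4F3 shares 3.90% with CYP4F2 and CYP3A5 shares 0.649% with CYP3A4, and no such stretch of the other members occurs in another gene. CYP4F3 (chromosome 19, 15640897 to 15662825, plus strand), CYP4F12 (15673087 to 15697174, plus strand) and CYP4F11 (15912377 to 15934867, minus strand) lie in 1 cluster on chromosome 19, where CYP2S1 also lies (41193219 to 41207539, plus strand). CYP3A5 lies on chromosome 7 (99648194 to 99679996, minus strand), CYP1A1 on chromosome 15 (74719542 to 74725528, minus strand), CYP1B1 on chromosome 2 (38067509 to 38076151, minus strand) and CYP24A1 on chromosome 20 (54143538 to 54173986, minus strand).

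Promoter sequences from RefSeq (GRCh38.p14, from 250 bases before to 50 after each annotated start) were searched on both strands for GCGTG, the core letters of the AHR binding element, and for GGGNGTG, a GC-box form of the kind KLF factors bind. N stands for any base, and with C in that place the second motif contains the first. Promoter entries were given for 6 of the members, in 8 windows. GCGTG occurred in 2 of the 8 and in 36.5% of 34943 promoter windows of all genes. GGGNGTG occurred in 4 of the 8 and in 30.0% of all windows. The windows printed here are of the 4 members whose changes the results turn on most, CYP3A5 and CYP4F3, which mostly fell after KLF5 knockout, and CYP1A1 and UGT1A6, which mostly rose. Capitals mark a match to either motif on either strand, and a match is a description of the letters only.
CYP3A5, chr7:99679947-99680246, minus strand: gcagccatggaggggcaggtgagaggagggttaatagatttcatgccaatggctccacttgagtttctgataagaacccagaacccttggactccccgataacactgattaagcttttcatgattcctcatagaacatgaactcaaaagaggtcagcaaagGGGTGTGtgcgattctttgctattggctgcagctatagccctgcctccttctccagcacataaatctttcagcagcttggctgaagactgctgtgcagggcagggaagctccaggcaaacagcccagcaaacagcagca
CYP4F3, chr19:15641062-15641361, plus strand: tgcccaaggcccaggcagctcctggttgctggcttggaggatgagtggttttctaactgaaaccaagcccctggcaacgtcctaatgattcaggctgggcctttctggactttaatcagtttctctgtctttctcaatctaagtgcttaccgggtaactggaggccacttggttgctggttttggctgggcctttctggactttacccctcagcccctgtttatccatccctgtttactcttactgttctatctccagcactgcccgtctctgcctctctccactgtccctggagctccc
CYP1A1, chr15:74725479-74725778, minus strand: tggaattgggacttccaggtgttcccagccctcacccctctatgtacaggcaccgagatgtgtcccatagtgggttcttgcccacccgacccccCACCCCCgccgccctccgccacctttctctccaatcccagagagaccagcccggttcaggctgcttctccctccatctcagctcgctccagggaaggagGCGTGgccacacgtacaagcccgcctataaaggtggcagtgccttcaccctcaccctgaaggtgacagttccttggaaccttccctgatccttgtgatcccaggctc
UGT1A6, chr2:233691452-233691751, plus strand: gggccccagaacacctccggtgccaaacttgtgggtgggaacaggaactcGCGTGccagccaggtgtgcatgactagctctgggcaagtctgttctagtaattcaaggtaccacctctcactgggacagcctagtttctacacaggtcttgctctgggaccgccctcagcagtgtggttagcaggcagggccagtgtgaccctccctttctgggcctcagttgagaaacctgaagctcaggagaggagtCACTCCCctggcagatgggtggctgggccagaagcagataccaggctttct
The CYP1A1 window and the printed UGT1A6 window, that at the start of the annotated gene, hold both motifs. The CYP3A5 window holds GGGNGTG, and the CYP4F3 window holds neither, nor does the other UGT1A6 window (chr2:233692640-233692939).

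In control libraries (sgRosa or DMSO), CYP3A5, CYP4F12 and CYP2S1 had their highest mean level in AsPC-1, and CYP4F3, CYP4F11 and CYP1A1 in T3M-4. CYP1B1 and CYP24A1 had theirs in CFPAC-1, and UGT1A6 and UGT1A10 in BxPC-3. Most of the lines were pancreatic, and the share of all genes highest in such a line was not taken. CYP3A5, a steroid- and drug-oxidising enzyme, was highest in the classical lines, with 139 ± 67.2 TPM (SD, n = 17) in AsPC-1 and 78.2 ± 30.7 TPM (SD, n = 4) in SUIT-2, libraries of which overlapped. T84 (24.3 ± 2.71 TPM, n = 4) and CFPAC-1 (20.7 ± 8.96 TPM, n = 4) followed without overlap with SUIT-2, and the basal-like lines BxPC-3 (2.61 ± 0.436 TPM, n = 6) and T3M-4 (2.08 ± 0.660 TPM, n = 9) stood far lower. CYP2S1, a P450 of epithelia outside the liver, ranged over AsPC-1 (37.4 to 145 TPM), SUIT-2 (40.4 to 107 TPM), T84 (58.6 to 68.0 TPM) and BxPC-3 (46.8 to 86.7 TPM) with overlap between each line and the next, above CFPAC-1 (18.6 to 32.9 TPM) and T3M-4 (5.23 to 14.3 TPM). These 2 genes thus shared low values in T3M-4.

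The CYP4F enzymes, omega-hydroxylases of fatty acids and eicosanoids, did not share an order of lines. CYP4F12 was highest in AsPC-1 at 21.6 ± 6.89 TPM (SD, n = 17), without overlap with BxPC-3 at 6.62 ± 1.21 TPM (n = 6), which overlapped T3M-4 and SUIT-2. CYP4F11 was highest in T3M-4 at 47.4 ± 19.5 TPM (SD, n = 9), without overlap with SUIT-2 at 14.2 ± 3.87 TPM (n = 4), while AsPC-1 stood at 1.01 ± 1.32 TPM (n = 17). CYP4F3 (the leukotriene B4 omega-hydroxylase) was highest in T3M-4 at 16.6 ± 9.96 TPM, but the libraries of T3M-4, AsPC-1, SUIT-2, BxPC-3, CFPAC-1 and T84 overlapped each with the next.

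CYP1A1, which oxidises polycyclic aromatic hydrocarbons, was highest in T3M-4 (16.5 to 49.4 TPM over 9 libraries) and T84 (15.6 to 29.6 TPM over 4), which overlapped, and did not exceed 0.515 TPM in any CFPAC-1 or SUIT-2 control library. CYP1B1, which also hydroxylates oestradiol, was highest in CFPAC-1 at 70.8 ± 8.65 TPM (SD, n = 4), without overlap with BxPC-3 at 13.5 ± 3.74 TPM (n = 6). CYP24A1, the mitochondrial enzyme that inactivates active vitamin D, had its highest mean in CFPAC-1 at 21.8 ± 19.9 TPM (n = 4), a mean carried by 1 library at 51.6 TPM against 11.5 to 12.3 TPM in the other 3, and CFPAC-1 overlapped T3M-4 (2.31 to 27.6 TPM). UGT1A6, which conjugates small planar phenols, was highest in BxPC-3 at 180.0 ± 48.9 TPM (n = 6), then in T84 at 108 ± 4.21 TPM (n = 4), without overlap. UGT1A10, a form expressed in gut rather than liver, was highest in BxPC-3 (141 to 316 TPM), which overlapped SUIT-2 (35.8 to 196 TPM), and reached at most 0.497 TPM in T3M-4. Over all 10 genes, 53 of the 80 pairs of neighbouring lines overlapped, a share that was not taken for other genes. Levels within AsPC-1, T3M-4 and BxPC-3 came from several experiments.

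**Figure D1:**
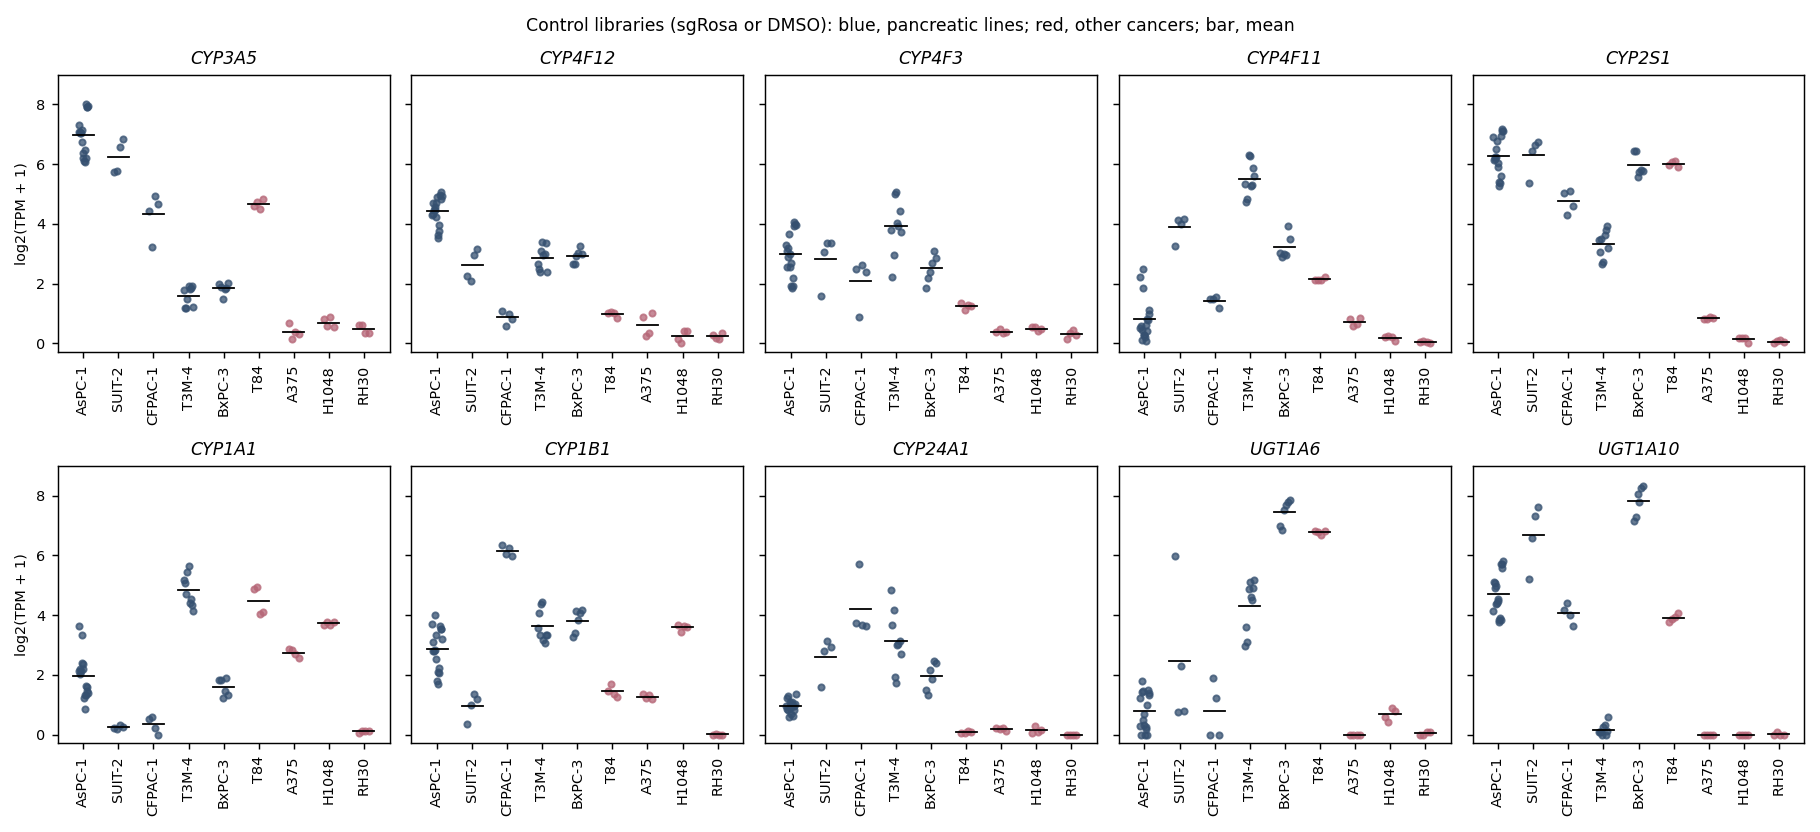
Level of each enzyme gene in the control libraries (sgRosa or DMSO) of the 9 lines, as log2(TPM + 1), with 1 point per library and a bar for the mean. The 17 AsPC-1 libraries carry the highest CYP3A5 and CYP4F12 levels, T3M-4 the highest CYP4F11, and BxPC-3 the highest UGT1A6 and UGT1A10.

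KLF5 knockout moved these genes in opposite directions. Over the 8 comparisons 75 values were tested, of which 23 rose and 27 fell. CYP4F12 and CYP4F3 fell in 6 and 7 of 8 comparisons and rose in none, CYP1A1 rose in 6 of the 6 in which it passed the filter, and CYP24A1 and UGT1A6 rose in 5 of 8 and fell in none. In AsPC-1 experiment 1 UGT1A6 passed the filter only through the sgKLF5 libraries, so only a rise could be counted there. CYP3A5 fell in 5 and rose in 1 of 8, CYP2S1 fell in 4 and rose in 1, CYP4F11 fell in 3 of 7, CYP1B1 rose in 3 and fell in 1 of 8, and UGT1A10 rose in 2 and fell in 1 of 6. The share of all genes called in the same comparisons was 25.9% in AsPC-1 experiment 1, where 9 of 9 members tested were called, and 27.8% in experiment 3, with 10 of 10. It was 16.2% and 34.6% in BxPC-3 experiments 1 and 2 (5 of 10 and 9 of 10 members) and 5.72% and 34.6% in T3M-4 experiments 1 and 2 (5 of 9 and 6 of 9). In CFPAC-1 it was 16.2% (3 of 9 members) and in SUIT-2 3.94% (3 of 9). The member counts lay above these shares in each comparison. The members were chosen with earlier results of these data known, so this excess is no test of them as a set.

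CYP3A5 fell in both classical lines. In AsPC-1 experiment 3 it stood at 256, 240.4, 242 and 243 TPM in sgRosa and 54.0, 75.7, 80.4 and 84.5 TPM in sgKLF5, groups that did not overlap, and its log2 fold change was -1.74 (SE 0.12, limma adjusted p = 1.76e-09). In AsPC-1 experiment 1 it stood at 81.6 and 72.0 TPM in 2 sgRosa libraries, and the 6 sgKLF5 libraries had a lowest value of 35.3, a median of 44.5 and a highest of 49.3 TPM, again below both controls. Here its log2 fold change was -0.83 (SE 0.13, limma adjusted p = 8.56e-04). In SUIT-2, where the 2 groups also did not overlap, the values were 52.1, 53.1, 93.7 and 114 TPM in sgRosa and 28.0, 36.2, 35.1 and 17.5 TPM in sgKLF5 (log2 fold change -1.36, SE 0.31, limma adjusted p = 0.0467). That call was lost without any 1 library other than sgRosa replicate 1, with fold changes from -1.52 to -1.14 and an adjusted p up to 0.151. CFPAC-1 also fell, from 20.4, 8.44, 29.4 and 24.4 to 7.66, 8.25 and 6.43 TPM (log2 fold change -1.24, SE 0.27, limma adjusted p = 0.00796). The lowest control, replicate 2, lay just above the highest knockout value, and without that library the value was -1.60 (adjusted p = 5.99e-07).

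In the basal-like lines, where CYP3A5 was low, its direction depended on the experiment. In BxPC-3 experiment 2 it rose from 1.81, 2.53, 2.61 and 3.02 TPM to 4.50, 8.08, 7.11 and 8.77 TPM without overlap, and its log2 fold change was 1.195 (SE 0.18, limma adjusted p = 7.73e-05). In experiment 1 it was -0.24 (adjusted p = 0.557). In T3M-4 experiment 1 it fell from 1.76 and 2.77 TPM to 0.795, 0.439, 0.733 and 0.916 TPM (-0.91, SE 0.20, limma adjusted p = 0.0382). That call was lost without any 1 library but sgKLF5 replicate 2, with fold changes from -1.14 to -0.69 and an adjusted p up to 0.410. In T3M-4 experiment 2 the log2 fold change was 0.26 (adjusted p = 0.188).

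CYP4F12 showed the largest fall of any member in AsPC-1. In experiment 3 it went from 30.3, 27.4, 32.4 and 29.8 TPM in sgRosa to 0.760, 2.11, 5.11 and 3.59 TPM in sgKLF5, without overlap. The log2 fold change was -3.14 (SE 0.23, limma adjusted p = 5.14e-09). In experiment 1 the 2 controls were at 24.8 and 29.0 TPM and the 6 sgKLF5 libraries had a lowest value of 1.15, a median of 2.89 and a highest of 3.51 TPM (-2.96, SE 0.24, limma adjusted p = 1.22e-05). SUIT-2 fell from 3.73, 3.24, 6.81 and 7.94 TPM to 0.647, 0.217, 1.08 and 0.468 TPM (-1.96, SE 0.28, limma adjusted p = 0.00620), also without overlap. In the basal-like lines the falls were smaller, at -0.67 in T3M-4 experiment 2 (adjusted p = 0.00147), -1.18 in experiment 1 (adjusted p = 0.0376) and -0.50 in BxPC-3 experiment 2 (adjusted p = 0.00980). The T3M-4 experiment 1 call was lost without any 1 library but sgKLF5 replicate 2, with fold changes from -1.33 to -1.02 and an adjusted p up to 0.410. BxPC-3 experiment 1 (-0.89, adjusted p = 0.0527) and CFPAC-1 (-0.25, adjusted p = 0.380) did not pass the test.

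CYP4F3, its neighbour on chromosome 19, fell in all but 1 of the 8 comparisons. In AsPC-1 experiment 3 it fell from 14.1, 15.6, 15.0 and 14.7 TPM to 0.448, 0.987, 1.71 and 2.41 TPM (-2.80, SE 0.19, limma adjusted p = 1.60e-09). In T3M-4 experiment 1 it fell from 31.3 and 32.8 TPM to 3.69, 1.23, 7.41 and 6.49 TPM (-2.70, SE 0.52, limma adjusted p = 0.0255). In neither case did the groups overlap, but the T3M-4 call was lost without sgKLF5 replicate 1 or either control, with fold changes from -2.95 to -2.31 and an adjusted p up to 0.253. The log2 fold change was -1.97 in AsPC-1 experiment 1 (adjusted p = 3.29e-05) and -2.25 in SUIT-2 (adjusted p = 0.0152). It was -1.23 in CFPAC-1 (adjusted p = 0.0194), -0.93 in T3M-4 experiment 2 (adjusted p = 8.08e-05) and -0.85 in BxPC-3 experiment 2 (adjusted p = 4.96e-04). The SUIT-2 call was lost without sgKLF5 replicate 1 or 2 or sgRosa replicate 2 (-2.67 to -2.07 and an adjusted p up to 0.0690). The CFPAC-1 call was lost without sgKLF5 replicate 1 or 2 or sgRosa replicate 1 or 3 (-1.64 to -1.05 and an adjusted p up to 0.0770). With sgRosa replicate 2 left out the value was -1.64 (adjusted p = 1.93e-05). CYP4F11 fell in BxPC-3 experiment 2 from 6.96, 6.75, 14.3 and 10.4 TPM to 2.03, 2.68, 3.72 and 3.62 TPM (-1.37, SE 0.18, limma adjusted p = 1.66e-05). It also fell in BxPC-3 experiment 1 (-0.94, adjusted p = 0.00313, lost without sgRosa replicate 1 at an adjusted p of 0.0566). A further fall was that in AsPC-1 experiment 3 (-0.49, adjusted p = 0.0357, lost without any of 5 of the 8 libraries). No sgRosa or sgKLF5 library exceeded 1.16 TPM there, and CYP4F11 passed the filter only through other knockout groups of that experiment. In T3M-4, the line where it was highest, its values were -0.97 (adjusted p = 0.165) and -0.27 (adjusted p = 0.0635).

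CYP2S1 did not keep 1 direction within AsPC-1. It rose in experiment 1 from 64.0 and 59.3 TPM to 77.1 to 101 TPM over 6 libraries, without overlap (0.46, SE 0.10, limma adjusted p = 0.00685). That call was lost without sgRosa replicate 2 (adjusted p = 0.0915). It fell in experiment 3 from 123, 145, 137 and 137 TPM to 76.3, 118, 110.4 and 70.6 TPM, also without overlap (-0.56, SE 0.15, limma adjusted p = 0.00993). CYP2S1 fell in CFPAC-1 (-0.99, adjusted p = 0.00338), BxPC-3 experiment 1 (-0.61, adjusted p = 0.00694) and BxPC-3 experiment 2 (-0.33, adjusted p = 0.0397). The experiment 1 call in BxPC-3 was lost without either control, with an adjusted p up to 0.0757, and the experiment 2 call without any 1 library but sgRosa replicate 1, with an adjusted p up to 0.0953. It did not pass in SUIT-2 (-0.62, adjusted p = 0.339), where it did without sgRosa replicate 1, the control far from its group, at -0.93 (adjusted p = 0.00996).

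CYP1A1 rose furthest in the basal-like lines. In BxPC-3 experiment 1 it stood at 2.59 and 2.55 TPM in sgRosa and 48.5, 53.6, 50.5 and 57.3 TPM in sgKLF5. The log2 fold change was 3.90 (SE 0.13, limma adjusted p = 2.68e-07). In T3M-4 experiment 2 it rose from 20.3, 22.2, 19.2 and 16.5 TPM to 86.4, 83.5, 82.9 and 76.6 TPM (2.03, SE 0.079, limma adjusted p = 3.70e-12). Neither pair of groups overlapped. Nor did they in T3M-4 experiment 1, where CYP1A1 rose from 42.9 and 49.4 TPM to 230.3, 101, 231 and 239 TPM (2.01, SE 0.35, limma adjusted p = 0.0173), the lowest knockout value being replicate 2. That call was lost without sgKLF5 replicate 1 or either control, with fold changes from 1.90 to 2.32 and an adjusted p up to 0.196. CYP1A1 rose in BxPC-3 experiment 2 by 1.87 (adjusted p = 1.46e-07). It rose in AsPC-1 by 0.68 in experiment 1 (adjusted p = 0.0346) and 0.68 in experiment 3 (adjusted p = 0.00308). The AsPC-1 experiment 1 call was lost without either control or sgKLF5 replicate 1 or 5, with fold changes from 0.58 to 0.77 and an adjusted p up to 0.193. In SUIT-2 and CFPAC-1 CYP1A1 did not exceed 0.725 TPM in any of their sgRosa or sgKLF5 libraries and was not tested.

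CYP1B1, its relative, rose in T3M-4 experiment 2 from 8.08, 7.46, 8.99 and 8.97 TPM to 25.5, 24.4, 28.8 and 26.1 TPM, without overlap (1.54, SE 0.092, limma adjusted p = 6.09e-10). It fell in BxPC-3 experiment 2 from 16.7, 13.2, 15.9 and 17.1 TPM to 5.40, 5.61, 3.33 and 4.20 TPM, likewise without overlap (-1.58, SE 0.16, limma adjusted p = 5.20e-07). CYP1A1 and CYP1B1 thus moved in opposite directions in that experiment. In AsPC-1 CYP1B1 rose by 1.06 in experiment 1 (adjusted p = 0.00303) and 0.42 in experiment 3 (adjusted p = 0.00476). The former call was lost without sgRosa replicate 2 (adjusted p = 0.0596). In CFPAC-1, where it was highest, it stood at 80.7, 65.5, 74.97 and 61.8 TPM in sgRosa and 52.9, 68.2 and 62.7 TPM in sgKLF5 (-0.20, adjusted p = 0.244), ranges that overlapped. In T3M-4 experiment 1 the sgKLF5 values of 27.3, 3.75, 41.6 and 44.4 TPM lay on both sides of the controls at 19.7 and 20.8 TPM. Without replicate 2, the low one, CYP1B1 was called there at 0.84 (adjusted p = 0.0183).

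CYP24A1 rose most in T3M-4. In experiment 2 it went from 6.92, 7.14, 7.75 and 5.46 TPM to 49.2, 52.2, 66.6 and 67.5 TPM, without overlap (2.93, SE 0.17, limma adjusted p = 5.29e-10). In experiment 1 it went from 2.77 and 2.31 TPM to 13.3, 2.57, 24.9 and 24.3 TPM (1.94, adjusted p = 0.166), and without the low replicate 2 by 2.58 (adjusted p = 1.36e-04). BxPC-3 rose by 1.295 in experiment 1 (adjusted p = 0.00138) and 1.67 in experiment 2 (adjusted p = 1.90e-06). In AsPC-1 it rose by 0.70 in experiment 1 (adjusted p = 0.00655, lost without sgRosa replicate 2 at 0.0960) and 0.64 in experiment 3 (adjusted p = 0.00409), at levels that did not exceed 2.44 TPM. In CFPAC-1 the sgKLF5 libraries had 35.2, 28.3 and 34.3 TPM against 12.3, 51.6, 11.7 and 11.5 TPM (0.87, adjusted p = 0.0935). Replicate 2 of those controls lay above every knockout library and the other 3 below, and without it the change was 1.38 (adjusted p = 5.35e-07).

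The UGT genes changed by line. UGT1A6 rose in T3M-4 experiment 2 from 23.2, 21.5, 28.9 and 35.5 TPM to 119.6, 113, 114 and 114 TPM (2.06, SE 0.16, limma adjusted p = 1.87e-08) and in experiment 1 by 2.33 (adjusted p = 0.00184). In BxPC-3, the line with the highest UGT1A6, it rose in experiment 1 from 125 and 115 TPM to 276, 308, 303 and 291 TPM (1.29, SE 0.073, limma adjusted p = 2.77e-06). In experiment 2 it stood at 184, 204, 223 and 229 TPM and 184, 192, 166 and 158 TPM (-0.26, adjusted p = 0.0513). In AsPC-1, where its sgRosa libraries had at most 1.82 TPM, it rose by 1.39 in experiment 1 (adjusted p = 0.0315) and 0.95 in experiment 3 (adjusted p = 0.0162). These calls were lost without either control and without sgKLF5 replicate 4 or sgRosa replicate 1, respectively, at adjusted p up to 0.224 and 0.0700. In experiment 1 the controls averaged under 1 TPM, so UGT1A6 passed the filter only through the sgKLF5 libraries. It could thus be tested there only if it rose, and with no filter that call was lost. UGT1A10 rose in AsPC-1 experiment 1 from 21.0 and 22.4 TPM to 69.2 to 84.2 TPM (1.78, SE 0.083, limma adjusted p = 2.85e-07). In experiment 3 it rose from 51.2, 47.0, 51.6 and 55.0 TPM to 98.4, 101, 87.8 and 86.6 TPM (0.85, SE 0.066, limma adjusted p = 1.14e-08). Both AsPC-1 experiments thus gave groups that did not overlap. In BxPC-3 experiment 2 UGT1A10 fell from 264, 222, 306 and 316 TPM to 188, 178, 189 and 181 TPM (-0.57, SE 0.094, limma adjusted p = 1.30e-04). In experiment 1 its change was -0.0018 (95% interval -0.26 to 0.26, adjusted p = 0.994).

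**Figure D2:**
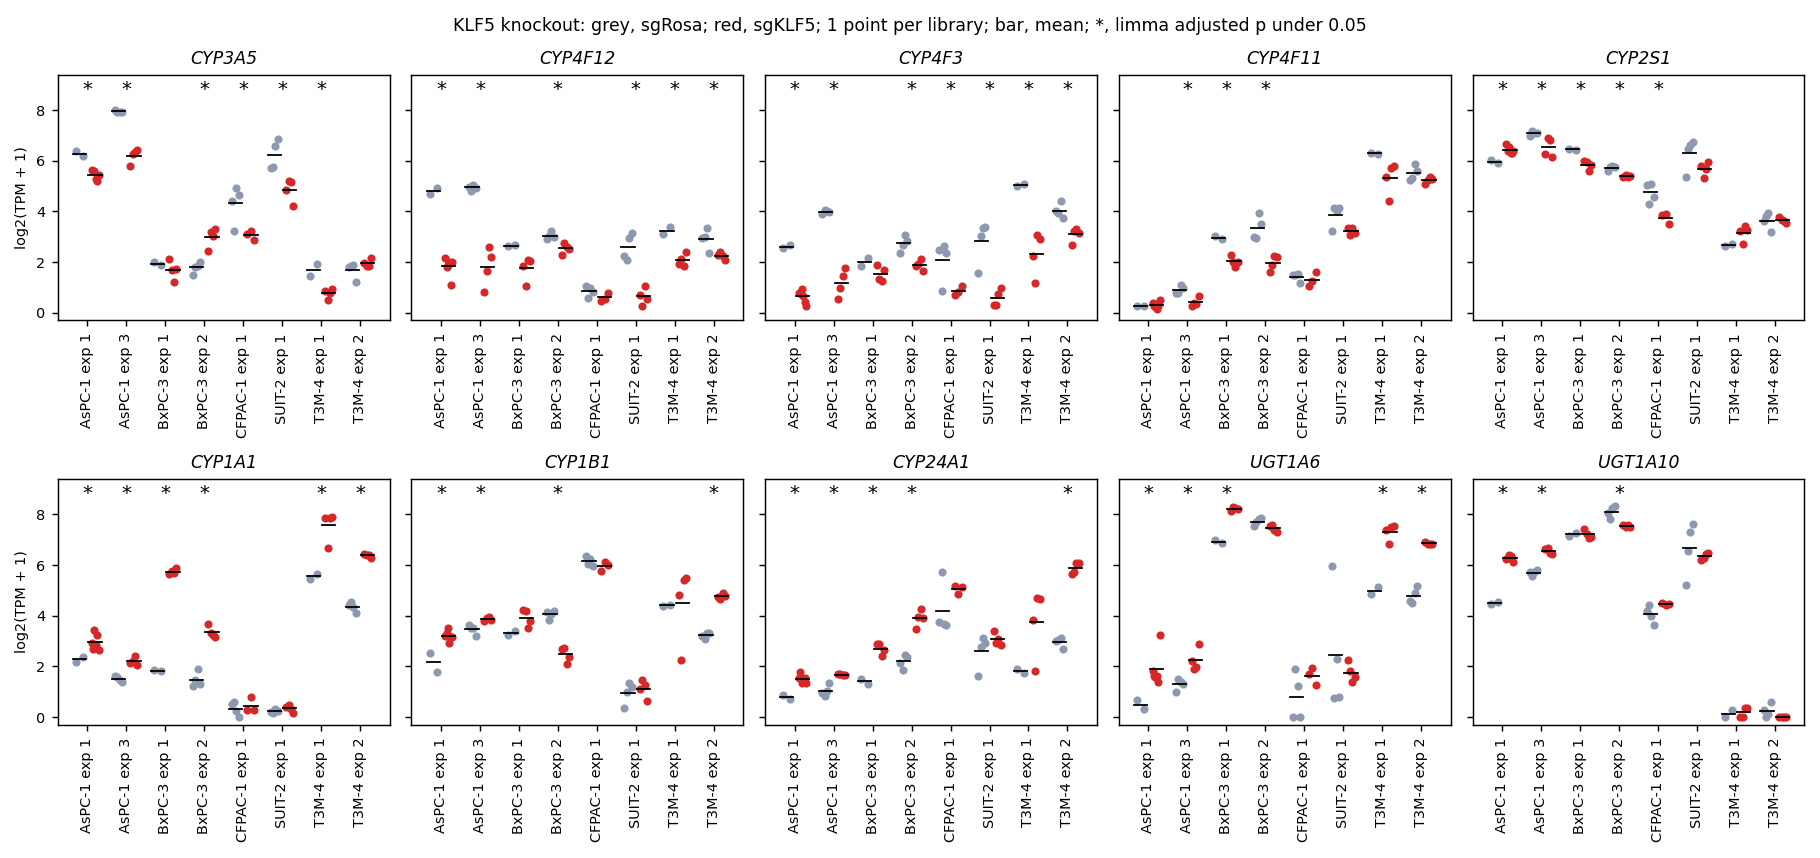
Level of each enzyme gene, as log2(TPM + 1), in sgRosa (grey) and sgKLF5 (red) libraries of the 8 line and experiment combinations, with 1 point per library, a bar for the mean and an asterisk where limma's adjusted p was under 0.05. CYP4F12 and CYP4F3 carry an asterisk with lower sgKLF5 values in 6 and 7 of 8 combinations, and CYP1A1 one with higher values in the 6 combinations tested.

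The repeated KLF5 knockouts differed in size for some members. In AsPC-1 the effect in experiment 1 minus that in experiment 3 was 0.92 for CYP3A5 (limma adjusted p = 0.00270), 1.02 for CYP2S1 (adjusted p = 0.00467) and 0.93 for UGT1A10 (adjusted p = 5.62e-06). These were 3 of 9 members tested, where 4.28% of all genes were called. The calls of CYP3A5 and CYP2S1 were lost without sgRosa replicate 2 of experiment 1, at adjusted p = 0.0547 and 0.0627. In BxPC-3, experiment 1 minus experiment 2 was 2.03 for CYP1A1 (adjusted p = 1.64e-06) and 2.19 for CYP1B1 (adjusted p = 8.25e-06). It was 1.54 for UGT1A6 (adjusted p = 8.44e-08), 0.57 for UGT1A10 (adjusted p = 0.0124) and -1.44 for CYP3A5 (adjusted p = 0.00157), together 5 of 10 members against 16.7% of all genes. The UGT1A10 call was lost without sgRosa replicate 1 of experiment 1 (adjusted p = 0.0963). In T3M-4, experiment 1 minus experiment 2 was -1.17 for CYP3A5 (adjusted p = 0.00505) and -1.77 for CYP4F3 (adjusted p = 0.0141). These were 2 of 9 members against 17.4% of all genes, with a median over all genes of -0.33. Both were lost without sgRosa replicate 2 of experiment 1 and CYP4F3 also without replicate 1, at adjusted p up to 0.0796 and 0.0881. The experiments of a line had separate control libraries.

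The mean effect of sgKLF5 in T3M-4 and BxPC-3 was compared with that in AsPC-1 and SUIT-2, with experiment 1 of each line. Experiment numbers count within a line, and the labels do not say whether the lines were handled together. The former effect minus the latter passed the test for 2 of 10 members, where 12.7% of all genes were called. Both were positive, and under median-of-ratios scaling 5 passed, 4 positive and 1 negative. CYP1A1 differed by 2.57 (SE 0.24, limma adjusted p = 3.53e-08) and CYP4F12 by 1.43 (SE 0.30, limma adjusted p = 0.00170). CYP1A1 thus rose more, and CYP4F12 fell less, in the basal-like pair. The CYP4F12 difference was no longer called with the replicate number as a block, at 1.17 (adjusted p = 0.0535). Libraries, not lines, were the replicates, so the test speaks of these 4 lines only.

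The receptors that act on these enzymes also moved after KLF5 knockout. AHR rose in AsPC-1 by 0.82 and 0.55 in experiments 1 and 3 (limma adjusted p = 0.0355 and 3.07e-04). It rose in T3M-4 experiment 2 by 1.48 (adjusted p = 6.25e-09) and in BxPC-3 experiment 2 by 0.72 (adjusted p = 4.27e-05). AHR did not pass in the experiment with the largest rise of CYP1A1, BxPC-3 experiment 1 (0.67, adjusted p = 0.139), nor in T3M-4 experiment 1 (0.45, adjusted p = 0.630), where CYP1A1 also rose. AHR had values of -0.26 in SUIT-2 (adjusted p = 0.695) and -0.33 in CFPAC-1 (adjusted p = 0.133), the lines in which CYP1A1 stayed under the filter. NR1I2 fell in AsPC-1 with log2 fold changes of -0.88 and -1.299 (adjusted p = 2.43e-04 and 1.93e-08). There HNF4A, a hepatocyte and gut transcription factor, fell with log2 fold changes of -1.06 and -1.49 (adjusted p = 2.64e-05 and 2.72e-09). HNF4A also fell in CFPAC-1 (-0.65, adjusted p = 0.0137) and had a value of -0.52 in SUIT-2 (adjusted p = 0.491). VDR fell in AsPC-1 with log2 fold changes of -0.82 and -1.27 (adjusted p = 0.00527 and 5.25e-06) and in BxPC-3 experiment 1 with -0.71 (adjusted p = 0.0198), while CYP24A1 rose in the same comparisons. Whether the receptors had a part in the enzymes' changes was not tested.

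The other genes of the pathways were read from chosen lists over the same 8 comparisons, in which 20.6% of all values tested were called (11.8% higher, 8.81% lower). Of the AHR axis 6 values rose and 9 fell of 52 tested, and of the vitamin D and xenobiotic receptor axis 4 rose and 17 fell of 81. Of other CYP genes 14 rose and 12 fell of 117, and of other UGT genes 4 rose and 2 fell of 25. The shares called of these 4 lists were 28.8%, 25.9%, 22.2% and 24.0%. Electron donors and UDP-glucuronate supply gave 19 higher and 9 lower of 88. Other conjugating and detoxifying enzymes gave 59 higher and 24 lower of 194, and efflux and uptake transporters 12 higher and 22 lower of 84 (31.8%, 42.8% and 40.5% called). For example, in AsPC-1 experiment 3 the medians of these lists, in that order, ran from -0.13, -0.24, -0.15, 0.48, 0.054 and 0.061 to -0.29, beside a median of 0.020 over all genes. Over up to 48 comparisons, with 30.5% of all values called (differences between experiments, lines and vectors included, many with shared controls), the genes called most often included ALDH3A1 (an AHR-responsive aldehyde dehydrogenase, higher in 7 and lower in 16) and AHR (14 and 2) in the first list. In the second they were PPARG (1 and 22), PPARA (11 and 5) and RXRB (4 and 12). Among other CYP genes they were CYP51A1 of sterol synthesis (0 and 16), CYP27A1, a sterol 27-hydroxylase (14 and 1), and the retinoic acid hydroxylase CYP26B1 (9 and 4). Among other UGT genes they were UGT8 (8 and 2), UGT1A3 (7 and 0) and UGT1A1 (6 and 1). UGT1A3 was tested in 17 comparisons and CYP27A1 in 31. Control libraries averaged under 1 TPM of UGT1A3 in every line, and of CYP27A1 in AsPC-1, BxPC-3, T3M-4 and T84. Where such a gene passed the filter only through treated libraries, only a rise could be counted, so these splits are no result about direction. The P450 oxidoreductase POR was higher in 23 and lower in 1, cytochrome b5 CYB5A in 12 and 9 and ferredoxin reductase FDXR in 13 and 7. Of the conjugating list the epoxide hydrolases EPHX1 (25 and 1) and EPHX2 (18 and 7) and the reductase AKR1B10 (12 and 12) led, and of the transporters SLC22A18 (17 and 4), SLCO4A1 (9 and 9) and ABCC3 (10 and 7).

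CHD4 knockout in AsPC-1, targeting an ATPase of the NuRD chromatin complex, called 7 of 8 members tested, 1 higher and 6 lower, where 50.0% of all genes were called. UGT1A10 fell from 33.5, 32.4, 28.9 and 30.5 TPM to 3.65, 4.85, 5.34 and 6.61 TPM (-2.42, SE 0.13, limma adjusted p = 4.85e-08). CYP1B1 fell from 7.58, 5.98, 6.01 and 6.12 TPM to 0.906, 0.426, 1.08 and 1.36 TPM (-1.95, SE 0.15, limma adjusted p = 1.06e-06). Both groups of values stood wholly apart, and both genes had risen after KLF5 knockout in the same line. CYP1A1 rose from 3.34, 3.06, 3.59 and 3.35 TPM to 9.32, 7.54, 9.06 and 9.93 TPM, without overlap (1.196, SE 0.10, limma adjusted p = 2.13e-06). CYP3A5 fell from 130.2 to 135 TPM to 50.1 to 65.2 TPM (-1.19, adjusted p = 8.24e-08). CYP4F12 fell with a log2 fold change of -1.03 and CYP4F3 with -1.27 (adjusted p = 2.26e-06 and 3.85e-05). CYP2S1 had the smallest fall, -0.16 (adjusted p = 0.0364), a call lost in 6 of 8 fits without 1 library (adjusted p up to 0.0985). CYP24A1 did not pass (0.21, adjusted p = 0.252). NR1I2 fell with -1.44 and AHR rose by 0.88 (adjusted p = 2.64e-08 and 7.56e-05). Of other conjugating and detoxifying enzymes 1 rose and 17 fell of 23. Knockout of SERPINB5 (maspin) called 0 of 8 members by limma, with 0 at an unadjusted p under 0.05, where 0.0343% of all genes were called.

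CYP3A5 and CYP4F3 fell in AsPC-1 and rose in T3M-4 after RUVBL1 knockout and after RUVBL2 knockout. After RUVBL1 knockout, CYP3A5 fell in AsPC-1 experiment 2 from 67.4, 67.0, 88.4 and 73.0 TPM to 47.3, 47.7, 50.6 and 49.7 TPM (-0.58, SE 0.10, limma adjusted p = 2.26e-04). In experiment 3 it fell from 256, 240.4, 242 and 243 TPM to 139, 137, 184 and 165 TPM (-0.66, SE 0.12, limma adjusted p = 1.45e-04). In T3M-4 it rose from 2.504, 2.63, 2.74 and 1.33 TPM to 6.48, 7.97 and 7.96 TPM (1.38, SE 0.16, limma adjusted p = 1.89e-06). In each of these the groups did not overlap, and the difference between the lines itself was not tested. The log2 fold change of CYP4F3 was -0.51 and -1.01 in the AsPC-1 experiments and 0.86 in T3M-4 (adjusted p = 0.00788, 2.21e-04 and 2.03e-04). CYP1A1 rose in AsPC-1 from 1.34, 1.498, 0.805 and 1.49 TPM to 4.54, 5.23, 4.46 and 4.75 TPM in experiment 2 (1.34, SE 0.12, limma adjusted p = 2.20e-07) and by 1.08 in experiment 3 (adjusted p = 2.32e-05), as it had after KLF5 knockout. CYP24A1 rose in T3M-4 from 6.92, 7.14, 7.75 and 5.46 TPM to 20.7, 19.5 and 20.8 TPM (1.46, adjusted p = 5.35e-06). CYP4F12 rose there by 1.06 (adjusted p = 2.03e-05). Smaller rises of CYP4F11 (0.35) and CYP1A1 (0.27) were near the median of all genes, 0.25, and their calls were lost under a scaling that removes that median. CYP4F11's call was also lost without sgRUVBL1 replicate 1 or sgRosa replicate 1 or 2, at adjusted p up to 0.0693.

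In all, RUVBL1 knockout called 5 of 8 members in AsPC-1 experiment 2 (2 higher, 3 lower), where 55.8% of all genes were called, and 5 of 10 in experiment 3 (2 higher, 3 lower, 51.9%). It called 6 of 9 in T3M-4 (all 6 higher, 60.5%), 1 of 10 in BxPC-3 (lower, 16.0%) and 2 of 9 in CFPAC-1 (lower, 43.8%), counts near or below the share of all genes. RUVBL2 knockout called 5 of 10 in AsPC-1 experiment 3 (3 higher, 2 lower, 43.2%), 5 of 9 in T3M-4 (5 higher, 54.5%), 1 of 10 in BxPC-3 (lower, 9.76%) and 0 of 9 in CFPAC-1 by limma (12.1%). This split of 8 higher and 3 lower became 6 and 4 under median-of-ratios scaling, which removes the shift of all genes. The higher calls in AsPC-1 included CYP4F11, which passed the filter only through knockout groups of that experiment. Only 5 fits without 1 library could test CYP4F11 there. The values of both knockouts stood close for several genes. In T3M-4 CYP3A5 changed by 1.23, CYP4F12 by 1.05, CYP4F3 by 0.68 and CYP24A1 by 1.76 after RUVBL2 knockout (adjusted p = 2.77e-06, 1.03e-05, 8.64e-04 and 3.01e-07). The RUVBL1 and RUVBL2 values share their sgRosa libraries. In AsPC-1 experiment 3 RUVBL2 knockout gave -0.44 for CYP3A5, 0.90 for CYP1A1 and -0.49 for CYP4F3 (adjusted p = 0.00527, 2.52e-04 and 0.0428). The last call was lost without any 1 library but sgRUVBL2 replicate 1, at adjusted p up to 0.0883. In BxPC-3 CYP1B1 fell from 16.7, 13.2, 15.9 and 17.1 TPM to 6.13, 8.12, 10.2 and 9.22 TPM after RUVBL1 knockout and 6.72, 9.37 and 9.01 TPM after RUVBL2 knockout (-0.84 and -0.84, adjusted p = 0.00163 and 0.00665). In CFPAC-1 after RUVBL1 knockout CYP1B1 fell with -0.51 (adjusted p = 0.00189) and CYP24A1 with -0.90 (adjusted p = 0.0318). The latter was -0.39 without sgRosa replicate 2, and its call was lost without sgRUVBL1 replicate 1, 2 or 4 (adjusted p up to 0.0717). UGT1A10 rose more after RUVBL1 knockout in AsPC-1 experiment 2 (0.72) than in experiment 3 (0.31), a difference of 0.41 (limma adjusted p = 0.00711). It was the 1 of 9 members tested that differed, where 18.2% of all genes did.

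The dependency controls also raised members. Over the 10 comparisons of sgCDK1 (the mitotic kinase) and sgRpa3 (a subunit of the single-strand DNA binding protein) 95 values were tested, of which 18 rose and 0 fell by limma, and 38 had an unadjusted p under 0.05. Of all values tested in these comparisons 6.46% were called higher and 3.37% lower. In T3M-4 experiment 2 the median of all genes was 0.15 with either guide. Under median-of-ratios scaling 15 member values rose and 0 fell, and with only the groups compared 16 rose and 1 fell. In T3M-4 experiment 2 sgCDK1 called 5 of 9 members (16.8% of all genes), among them CYP3A5 at 0.90 and CYP24A1 at 0.99 (adjusted p = 0.00341 and 0.00490, the latter lost without sgCDK1 replicate 2 at 0.0552). There sgRpa3 called 5 of 9 (24.6%), with UGT1A6 at 1.13, CYP1B1 at 0.85 and CYP4F12 at 0.78 (adjusted p = 8.01e-04, 8.70e-05 and 0.00432). Rises of CYP3A5, CYP4F12 and CYP24A1 in T3M-4 were thus measured with the dependency controls as well as with the RUVBL guides. With sgRpa3, the CYP24A1 call was lost in 5 of 6 fits without 1 library and the CYP3A5 call without sgRpa3 replicate 2. With sgCDK1, the CYP4F12 call was lost without either sgCDK1 library. With only the groups compared, the CYP3A5 and CYP4F12 calls were lost for both guides. CYP2S1 rose with sgCDK1 in AsPC-1 experiment 3 (0.75, 1 of the 2 of 10 members called, with CYP1B1 at 0.86, 16.7% of all genes) and in BxPC-3 experiment 2 (1.04, the 1 of 10 called, 5.82%). The AsPC-1 call was lost without either sgCDK1 library (adjusted p up to 0.106). In BxPC-3 experiment 2 sgRpa3 called 4 of 10 (20.8%), with CYP4F3 at 1.09 and UGT1A10 at 0.66 (adjusted p = 0.00103 and 7.67e-04). In CFPAC-1 the libraries labelled sgRpa3, those with low CDK1, called 1 of 9 (11.6%), CYP3A5 at 0.97 (lost without sgRosa replicate 1 or either treated library, adjusted p up to 0.315), and those labelled sgCDK1 called 0 of 9 (0%). Elsewhere sgRpa3 called 0 members, in AsPC-1 experiment 3 (0.654% of all genes), BxPC-3 experiment 1 (0.307%) and T3M-4 experiment 1 (0%).

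After 24 h of CB-6644 in cells with the empty vector, the counts of members called were near or below the share of all genes. The comparison used the 3 DMSO libraries of a line (1 per vector) as 1 group. By limma 3 of 9 members were called in AsPC-1, where 64.4% of all genes were, and 3 of 9 in T3M-4, where 34.3% were. All 6 were higher, but under a scaling that removes the shift of all genes (medians 0.19 and 0.037) the split was 3 higher and 4 lower. Without the AsPC-1 EV DMSO library, 11 values were called in the 2 lines. CYP1B1 rose in AsPC-1 to 17.4, 17.3 and 19.1 TPM, above the EV, A62T and dF109 DMSO libraries at 15.0, 12.1 and 9.13 TPM (0.56, SE 0.12, limma adjusted p = 0.00186). In T3M-4 it rose by 0.53 (adjusted p = 0.0195, lost without EV CB-6644 replicate 1 or 2 or dF109 DMSO at up to 0.0799). CYP4F12 rose by 0.39 in AsPC-1 and 0.64 in T3M-4 (adjusted p = 0.0119 and 0.0112), UGT1A6 by 0.66 in T3M-4 (adjusted p = 0.00997) and UGT1A10 by 0.29 in AsPC-1 (adjusted p = 0.00966). With the single EV DMSO library as the only control, the values were 0.24 for CYP1B1 and 0.19 for CYP4F12 in AsPC-1 and 0.65 for CYP4F12 in T3M-4. Of the 6 calls only that of CYP1B1 in AsPC-1 remained (adjusted p = 0.0323). In fits with this control the lone DMSO library is assumed to vary like the other groups, which alone give the spread. There CYP2S1 was called at 0.28 and CYP4F3 at -0.46 in AsPC-1, and CYP4F11 at 0.46 in T3M-4 (adjusted p = 0.0249, 0.0118 and 0.0140).

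Members were also called in cells with the variants. RUVBL1 A62T cells had 6 of 9 members called in T3M-4 (50.0% of all genes) and 1 of 9 in AsPC-1 (12.7%), and RUVBL2 dF109 cells 4 of 9 in T3M-4 (37.6%) and 4 of 9 in AsPC-1 (33.4%). In T3M-4 A62T cells CYP4F3 stood at 18.4, 15.9 and 16.5 TPM against 3.68, 13.0 and 6.83 TPM in EV, A62T and dF109 DMSO (1.16, SE 0.29, limma adjusted p = 0.0112). The single DMSO libraries of the vectors already spread that far, and against its own DMSO library the value was 0.36 (adjusted p = 0.236). CYP24A1 stood at 42.0, 43.0 and 41.5 TPM in the same cells against 11.8, 27.6 and 17.1 TPM (1.2, adjusted p = 0.00766). Against its own DMSO library it was 0.59 (adjusted p = 0.241). In both cases the A62T DMSO library was the highest of the 3 controls. In AsPC-1 dF109 cells CYP1A1 stood at 4.78, 4.79 and 4.13 TPM, and its DMSO library, at 4.31 TPM, was low beside 9.16 TPM in EV and 11.3 TPM in A62T. Its change of -0.65 against the 3 libraries (adjusted p = 0.0416) became 0.067 against its own (adjusted p = 0.652).

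Under CB-6644, empty vector cells were then compared directly with variant cells. In T3M-4, EV minus A62T called 6 of 9 members, all lower in EV (50.6% of all genes, with a median of -0.27), and EV minus dF109 2 of 9 (34.6%, median -0.24). CYP4F3 stood at 5.36, 4.81 and 3.80 TPM in EV, 18.4, 15.9 and 16.5 TPM in A62T and 13.2, 12.1 and 11.6 TPM in dF109. EV lay below both, with differences of -1.67 and -1.24 (limma adjusted p = 0.00134 and 0.0111). CYP24A1 stood at 16.9, 12.9 and 8.37 TPM in EV and 35.0, 36.3 and 35.3 TPM in dF109. EV minus A62T was -1.70 and EV minus dF109 -1.46 (adjusted p = 7.83e-04 and 0.00426). Both genes showed the same order of vectors in the DMSO libraries, so a difference between vectors and a difference in response to the compound cannot be told apart here. In AsPC-1, EV minus A62T called 4 of 9 (51.1%) and EV minus dF109 4 of 9 (47.2%), 2 higher and 2 lower in EV in each. CYP3A5 was at 111, 110.3 and 130.3 TPM in EV, 182.7, 164 and 161 TPM in A62T and 177, 164 and 167 TPM in dF109. It was lower in EV, with differences of -0.53 and -0.53 (adjusted p = 0.00284 and 0.00309). Its DMSO libraries had 105, 159 and 139 TPM, again lowest in EV. CYP1B1 was higher in EV by 0.39 and 0.72 (adjusted p = 0.0206 and 5.62e-04, the former lost without EV replicate 3 or A62T replicate 2 at up to 0.0701), and was highest in EV in DMSO as well.

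**Figure D3:**
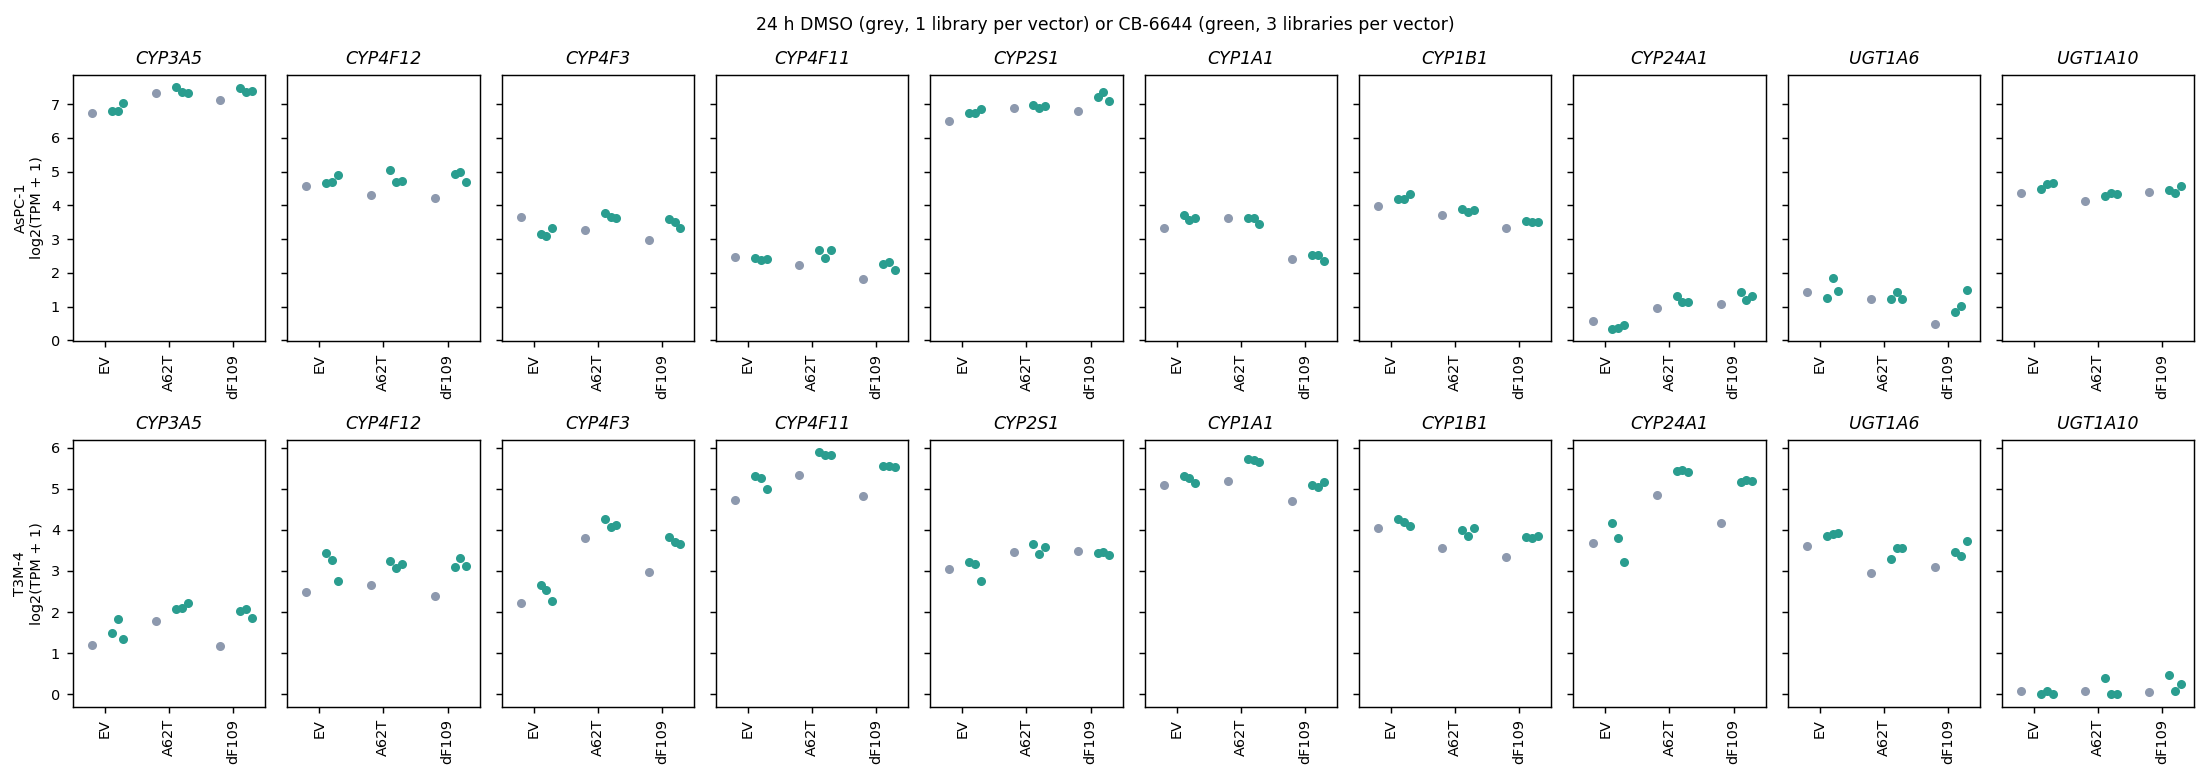
Level of each enzyme gene, as log2(TPM + 1), in AsPC-1 (top row) and T3M-4 (bottom row) cells with the empty vector (EV), RUVBL1 A62T or RUVBL2 dF109 after 24 h of DMSO (grey, 1 library) or CB-6644 (green, 3 libraries). CYP4F3 and CYP24A1 in T3M-4 are lowest in EV both with DMSO and with CB-6644, and CYP1A1 in AsPC-1 is lowest in dF109 in both.

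In the cancer lines without a vector, CB-6644 raised 12 of the 15 member values tested and lowered 0. Of all values tested in these lines 50.8% were called higher and 26.3% lower. The filter took DMSO and CB-6644 libraries together. In DMSO, UGT1A6 and CYP3A5 of H1048 and CYP4F11 of A375 averaged 0.611, 0.623 and 0.653 TPM. These passed the filter only through the treated libraries, so they could be tested only if they rose. With no filter 18 member values were called higher and 1 lower. T84 had 6 of 8 members called, all higher (71.4% of all genes). CYP1B1 rose there from 1.77, 2.22, 1.57 and 1.39 TPM to 6.30, 5.07, 6.02 and 5.65 TPM (1.31, SE 0.10, limma adjusted p = 2.44e-08). CYP3A5 rose from 23.0, 25.6, 21.4 and 27.4 TPM to 43.4, 38.8, 39.8 and 39.1 TPM (0.71, SE 0.071, limma adjusted p = 3.05e-07). In both genes every treated library lay above every control. CYP4F11 rose by 0.98, UGT1A10 by 0.63, UGT1A6 by 0.52 and CYP2S1 by 0.34 (adjusted p = 1.76e-08, 1.93e-06, 1.85e-08 and 2.71e-05). CYP1A1 did not pass (0.29, adjusted p = 0.109). In A375 2 of 3 were called (81.1%). CYP1A1 rose from 6.32, 6.19, 5.44 and 4.86 TPM to 19.5, 19.2, 21.2 and 17.7 TPM (1.61, SE 0.078, limma adjusted p = 5.70e-09) and CYP4F11 by 0.74 (adjusted p = 4.55e-05), while CYP1B1 changed by 0.009 (95% interval -0.21 to 0.23). In H1048 4 of 4 rose (77.9%), with UGT1A6 going from 0.519, 0.332, 0.861 and 0.732 TPM to 2.86, 1.80, 1.97 and 2.98 TPM (1.07, adjusted p = 2.90e-05). CYP1B1 rose by 0.73, CYP3A5 by 0.71 and CYP1A1 by 0.66 (adjusted p = 2.09e-07, 1.81e-04 and 2.50e-07). In RH30 no member averaged 1 TPM over the DMSO and CB-6644 libraries together, so none was tested. CYP3A5 stood there at 0.537, 0.513, 0.262 and 0.259 TPM in DMSO and 1.18, 1.87, 0.734 and 0.817 TPM in CB-6644. These groups did not overlap, but most values lay under 1 TPM, and 77.7% of all genes tested were called in that line.

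**Figure D4:**
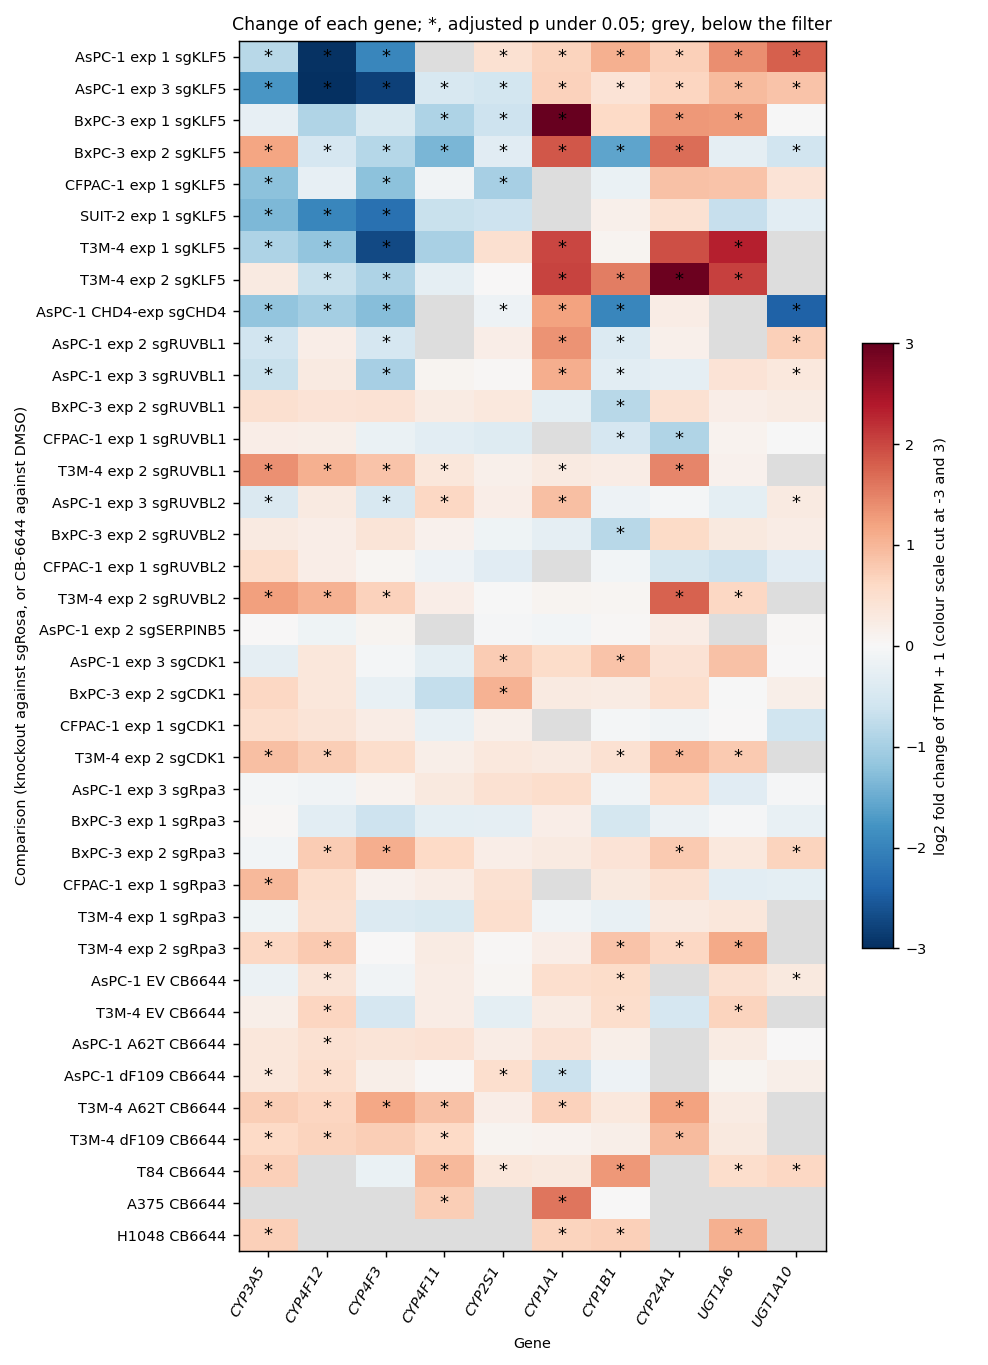
Log2 fold change of TPM + 1 of each enzyme gene in each knockout (against sgRosa) or CB-6644 (against DMSO) comparison, with the colour scale ending at -3 and 3, an asterisk where limma's adjusted p was under 0.05 and grey where the gene was below the filter. KLF5 knockout gives lower CYP3A5, CYP4F12 and CYP4F3 on the left beside higher CYP1A1, CYP24A1 and UGT1A6 on the right in several lines, and SERPINB5 knockout gives no asterisk.

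Likeness to each member was taken over all libraries of the 9 lines on the log2(TPM + 1) scale, among 13931 genes averaging 1 TPM or more. The closest were CYB5B (Pearson r 0.958) and EPS8L3 (0.954) for CYP3A5, AOC1 (0.874) and INPP1 (0.872) for CYP4F12. They were Cromer (0.807) and IL20RB (0.8) for CYP4F3, and LY6D (0.927) and CASP4 (0.909) for CYP4F11. They were PLBD1 (0.943) and SLC22A3 (0.923) for CYP2S1, ABCC9 (0.823) and CCZ1 (0.816) for CYP1A1, FAM50B (0.753) and MSMO1 (0.749) for CYP1B1, and TNFSF18 (0.879) and LGALS9 (0.872) for CYP24A1. For UGT1A6 they were FAM83F (0.879) and SERPINB2 (0.867), and for UGT1A10 AVEN (0.843) and MT1E (0.813). Among the members, CYP3A5 and CYP2S1 had an r of 0.785, CYP4F12 and CYP4F3 of 0.752 and CYP4F3 and CYP4F11 of 0.645. The libraries of a line are not independent, so these values mostly describe which lines express a gene.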

How the data were processed

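RNA-seq libraries (poly-A selected, 76-bp single-end reads) were quantified by the authors with kallisto against hg38 transcripts, transcripts of low abundance were removed (limit not given in the sources used here), and the deposited values were gene-level TPM from tximport. TPM have the same sum in every library and hold no counts, so depth was unknown and no counting interval could be given; the study's own tests used DESeq2 on counts, which were not used here.

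Libraries were grouped by the labels. For each line and experiment all libraries were fitted together with limma 3.58.1 (R 4.3.3) on log2(TPM + 1), with an empirical Bayes trend, for genes averaging 1 TPM or more in them, and p-values were Benjamini-Hochberg adjusted over all genes tested (threshold 0.05). A log2 fold change is on the log2(TPM + 1) scale and understates changes of low genes. CB-6644 groups in AsPC-1 and T3M-4 were compared with the 3 DMSO libraries of the line, 1 per vector, as 1 group. Baselines were described without a test. The limma fitting step was tested on simulated data with known changes.

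The members and gene lists were chosen with earlier results of these data known. Named were the members, AHR, VDR, NR1I2 and HNF4A, the 3 genes of each list called in the most comparisons (1 is not reported here), and the 2 genes most correlated with each member over all libraries.

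No 2 libraries had identical values (highest r 0.9988). Same-numbered replicates did not deviate together: in 0 of 33 comparisons did every same-numbered pair correlate over 0.1 (range -0.459 to 0.354), so replicate numbers were not taken as pairs. Alternatives were a pseudocount of 0.1, no filter, a filter of 5 TPM, median-of-ratios scaling, the replicate number as a block, only the groups compared, the own-vector DMSO library alone, and leaving out each library. Shared 76-base stretches came from GENCODE 44 protein-coding transcripts and promoter sequences from RefSeq. The dose of CB-6644 was not given in the labels.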

Additional observations from a re-analysis of the deposited data

Results flagged for a closer look

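Of 223 sets of a gene and a group of 4 to 10 libraries, 10 held a library far from the others by Dixon's test; chance alone marks about 1 in 20. CYP1A1 was 101 TPM in replicate 2 of T3M-4 experiment 1 sgKLF5 against 230.3 to 239 TPM in the other libraries. CYP1B1 was 7.58 TPM in replicate 1 of AsPC-1 sgRosa of the CHD4 experiment while the others had 5.98 to 6.12 TPM. CYP24A1 was 51.6 TPM in replicate 2 of CFPAC-1 experiment 1 sgRosa beside 11.5 to 12.3 TPM elsewhere in the group. CYP2S1 was 76.05 TPM in replicate 4 of T84 CB-6644 against 81.8 to 82.3 TPM in the other libraries. CYP3A5 was 1.33 TPM in replicate 4 of T3M-4 experiment 2 sgRosa while the others had 2.504 to 2.74 TPM. CYP4F12 was 15.1 TPM in replicate 1 of AsPC-1 experiment 2 sgSERPINB5 beside 9.38 to 10.0 TPM elsewhere in the group. UGT1A6 was 8.55 TPM in replicate 6 of AsPC-1 experiment 1 sgKLF5 against 1.61 to 2.51 TPM in the other libraries. UGT1A6 was 3.79 TPM in replicate 4 of AsPC-1 experiment 2 sgSERPINB5 while the others had 0 to 0.194 TPM. UGT1A6 was 61.5 TPM in replicate 1 of SUIT-2 experiment 1 sgRosa beside 0.693 to 3.96 TPM elsewhere in the group. UGT1A6 was 102 TPM in replicate 3 of T84 DMSO against 109.5 to 111 TPM in the other libraries. The CYP1A1, CYP24A1 and SUIT-2 UGT1A6 values came from libraries that also stood apart over all genes or were most like another group.

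Effects differed between experiments, lines or vectors by limma's test of the difference itself in 29 cases. For the sgKLF5 effect in AsPC-1, experiment 1 minus experiment 3, the log2 difference was 1.02 for CYP2S1, 0.92 for CYP3A5 and 0.93 for UGT1A10. For the sgRUVBL1 effect in AsPC-1, experiment 2 minus experiment 3, the log2 difference was 0.41 for UGT1A10. For the sgKLF5 effect in T3M-4, experiment 1 minus experiment 2, the log2 difference was -1.17 for CYP3A5 and -1.77 for CYP4F3. For the sgKLF5 effect in BxPC-3, experiment 1 minus experiment 2, the log2 difference was 2.03 for CYP1A1, 2.19 for CYP1B1, -1.44 for CYP3A5, 0.57 for UGT1A10 and 1.54 for UGT1A6. For the sgKLF5 effect in the basal-like minus the classical lines, the log2 difference was 2.57 for CYP1A1 and 1.43 for CYP4F12. For CB-6644-treated AsPC-1 cells, EV minus A62T, the log2 difference was 0.39 for CYP1B1, -0.53 for CYP3A5, -0.48 for CYP4F3 and 0.27 for UGT1A10. For CB-6644-treated AsPC-1 cells, EV minus dF109, the log2 difference was 1.16 for CYP1A1, 0.72 for CYP1B1, -0.44 for CYP2S1 and -0.53 for CYP3A5. For CB-6644-treated T3M-4 cells, EV minus A62T, the log2 difference was -0.45 for CYP1A1, -1.70 for CYP24A1, -0.50 for CYP2S1, -0.58 for CYP3A5, -0.66 for CYP4F11 and -1.67 for CYP4F3. For CB-6644-treated T3M-4 cells, EV minus dF109, the log2 difference was -1.46 for CYP24A1 and -1.24 for CYP4F3. In each of these experiment differences the controls were separate libraries, and the vector differences were already seen in part in the DMSO libraries.

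For some genes every library of a knockout lay on one side of the controls in one line or experiment and on the other side in another, a difference across lines that was not tested. CYP1B1 after sgKLF5 lay above the controls by 1.06 in AsPC-1 experiment 1, 0.42 in AsPC-1 experiment 3, 0.61 in BxPC-3 experiment 1 and 1.54 in T3M-4 experiment 2 and below them with -1.58 in BxPC-3 experiment 2. CYP2S1 after sgKLF5 lay above the controls by 0.46 in AsPC-1 experiment 1 and 0.47 in T3M-4 experiment 1 and below them with -0.56 in AsPC-1 experiment 3, -0.61 in BxPC-3 experiment 1, -0.33 in BxPC-3 experiment 2 and -0.99 in CFPAC-1. CYP3A5 after sgKLF5 lay above the controls by 1.195 in BxPC-3 experiment 2 and below them with -0.83 in AsPC-1 experiment 1, -1.74 in AsPC-1 experiment 3, -1.24 in CFPAC-1, -1.36 in SUIT-2 and -0.91 in T3M-4 experiment 1. UGT1A10 after sgKLF5 lay above the controls by 1.78 in AsPC-1 experiment 1, 0.85 in AsPC-1 experiment 3 and 0.41 in CFPAC-1 and below them with -0.57 in BxPC-3 experiment 2. CYP1B1 after sgRUVBL1 lay above the controls by 0.23 in T3M-4 experiment 2 and below them with -0.84 in BxPC-3 experiment 2 and -0.51 in CFPAC-1. The T3M-4 value was not called and was near the median of all genes there, 0.25. CYP24A1 after sgRUVBL1 lay above the controls by 1.46 in T3M-4 experiment 2 and below them with -0.90 in CFPAC-1. CYP3A5 after sgRUVBL1 lay above the controls by 0.49 in BxPC-3 experiment 2 and 1.38 in T3M-4 experiment 2 and below them with -0.58 in AsPC-1 experiment 2 and -0.66 in AsPC-1 experiment 3. CYP4F3 after sgRUVBL1 lay above the controls by 0.86 in T3M-4 experiment 2 and below them with -0.51 in AsPC-1 experiment 2 and -1.01 in AsPC-1 experiment 3. CYP3A5 after sgRUVBL2 lay above the controls by 1.23 in T3M-4 experiment 2 and below them with -0.44 in AsPC-1 experiment 3. CYP4F3 after sgRUVBL2 lay above the controls by 0.68 in T3M-4 experiment 2 and below them with -0.49 in AsPC-1 experiment 3.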

How the results depend on the processing

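Of 422 values tested 167 were called, of which 97 kept their call and direction under every alternative, 116 under each fit without 1 library, and 51 lost it without at least 1 library; 2 called values reversed, and 172 alternatives changed the sign of an uncalled value. CYP1A1 after sgRUVBL1 in T3M-4 went from 0.27 to -0.013 under median-of-ratios scaling (adjusted p = 0.900), CYP1A1 in CB-6644-treated AsPC-1 dF109 cells from -0.65 to 0.067 against its own DMSO library (adjusted p = 0.652), and the T3M-4 difference between experiments for CYP1A1 after sgKLF5, uncalled, reached 0.41 under median-of-ratios scaling (adjusted p = 0.0294). The cause was not tested. For CB-6644 in EV cells 6 calls became 3 with only the groups compared (fewer samples) and 5 to 11 without 1 library, with 11 when AsPC-1 EV DMSO was left out. Other cancer lines went from 12 to 19 with no filter, which tests more genes, and subtypes from 2 to 5 under median-of-ratios scaling. With the replicate number as a block, differences between vectors went from 16 to 25 and between subtypes from 2 to 1, and KLF5 calls from 50 to 52; the samples share only a number. No block could be used against the DMSO libraries of AsPC-1 and T3M-4, which have 1 replicate per vector. KLF5 calls were 47 with a pseudocount of 0.1, 45 with no filter, 35 with a filter of 5 TPM, 55 under median-of-ratios scaling, 45 with only the groups compared and 45 to 54 without 1 library. Without sgRosa replicate 2, CFPAC-1 had 5 calls of 8 (main 3 of 9). Without sgRosa replicate 1, SUIT-2 had 5 of 9 (main 3). Without sgKLF5 replicate 2, T3M-4 experiment 1 had 9 of 9 (main 5). SUIT-2 sgKLF5 replicate 4 also stood apart from its group, and without it the CYP3A5 call was lost. Depth was unknown, so no limit from it can be given for genes near 0 TPM.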
